A study of Mus musculus with 18 samples.

Results

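The mitochondrial genome of the mouse gives its own small set of transcripts, and they were followed here in L929 cells, an established line of mouse fibroblasts. The set was every row of the deposited table whose gene name starts with mt-, which gave 37 of 57180 genes: 13 mRNAs, 2 rRNAs and 22 tRNAs. RNA was sequenced in 6 groups of 3 libraries each. Mock cells are labelled DMSO. AOA cells received 0.5 mM aminooxyacetic acid (AOA), an inhibitor of aminotransferases, and AOA+Asp cells received 0.5 mM AOA with 20 mM aspartate. HT-DNA cells were transfected with 0.5 µg/ml herring testis DNA (HT-DNA), a ligand of the DNA sensor cGAS, using Lipofectamine 2000, for 6 h. HT-DNA+AOA and HT-DNA+AOA+Asp cells received AOA 1 h before HT-DNA, the latter group also 20 mM aspartate. The sample annotation used here lists the same 1 h for AOA and AOA+Asp cells, but no total time of exposure to AOA. All cells were wild type, no group received aspartate alone, and whether Mock cells received the transfection reagent is not given in the sources used here. The comparisons asked how inhibition of aminotransferases, addition of aspartate and cytosolic DNA each changed these transcripts.

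The mitochondrial genome encodes core subunits of respiratory complexes I, III, IV and V, the rRNAs of the mitochondrial ribosome and the tRNAs that it uses. Both strands are transcribed from promoters in the noncoding region into long polycistronic RNAs, which are then divided into single mRNAs, rRNAs and tRNAs, and the level of each also depends on how long it lasts. On the strand that carries most genes the rRNA genes come first, followed by mt-Nd1 and mt-Nd2, and mt-Cytb comes last of the mRNAs, while mt-Nd6 is the sole mRNA of the other strand.

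Several of these genes have nearly identical copies in the nuclear genome, so their sequences decide which rows can be read alone. In GENCODE vM21 transcripts, which held all 37 rows, mt-Co2 and the nuclear pseudogene Gm28661 were identical over 681 bases, and mt-Co2 ran on for 3 further bases. The last bases of both transcripts are given with those outside the copy in capitals, to show how little separates the rows.
mt-Co2: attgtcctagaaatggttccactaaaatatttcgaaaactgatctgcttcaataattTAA
Gm28661: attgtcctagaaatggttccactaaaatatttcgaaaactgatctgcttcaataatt
Over 783 bases mt-Co3 was identical to Gm28437, over 678 bases mt-Atp6 was identical to Gm10925, and over 294 bases mt-Nd4l was identical to Gm10222. In mt-Nd3 and Gm28438, 344 of 345 bases matched. The substitution was T3C, counted from 1 at the first base of mt-Nd3 with the mitochondrial base first, and it is in capitals in the first 60 bases of each.
mt-Nd3: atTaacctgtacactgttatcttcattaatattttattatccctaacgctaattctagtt
Gm28438: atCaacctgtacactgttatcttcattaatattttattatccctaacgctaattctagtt
By contrast, no 31-base word of mt-Nd1 or mt-Rnr1 occurred in any other gene. The start of mt-Nd1, the mRNA with the deepest fall under AOA, is given with its first codon in capitals.
mt-Nd1: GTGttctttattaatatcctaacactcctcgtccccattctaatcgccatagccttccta

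The deposited values are estimated read counts, and for the genes with copies they were divided between the mitochondrial and the nuclear row. The mt-Co2 row held 1.57% to 4.19% of the counts of mt-Co2 and its copies, and Gm28661 held a median of 151960 counts per library. For mt-Co3 the mitochondrial row held 2.86% to 15.04%, for mt-Atp6 25.2% to 55.5%, for mt-Nd3 34.9% to 48.9% and for mt-Nd4l 41.5% to 64.3%. The mt-Co1 row kept 95.2% to 99.8%, and mt-Nd2, mt-Nd5, mt-Nd6, mt-Cytb and mt-Rnr2 each kept at least 99.99%. Gm28439, identical to mt-Nd4 over 876 bases, was at 0 in every library. The split differed between libraries of a single group, so results for mt-Co1, mt-Co2, mt-Atp6, mt-Co3, mt-Nd3 and mt-Nd4l are also given with the copies summed, a step chosen after the split had been seen. Summing cannot say which genome a read came from.

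**Figure D1:**
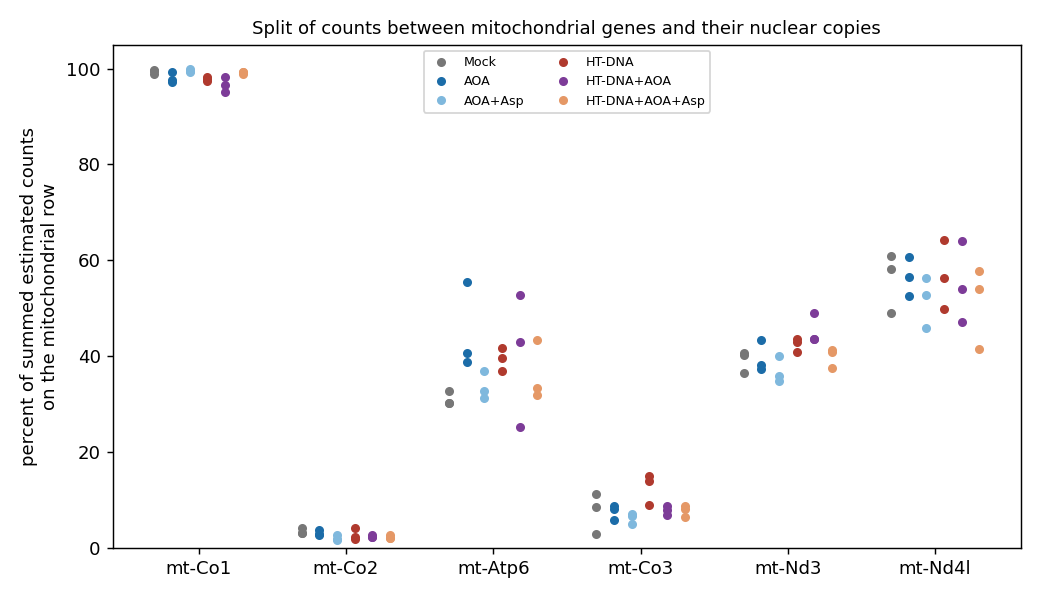
Share of the summed estimated counts of a mitochondrial gene and its nuclear copies that stood on the mitochondrial row, in percent (y axis), for 6 genes (x axis). Each point is 1 library, coloured by group. The mt-Co2 points lie between 1.57% and 4.19%, and those of mt-Atp6 spread from 25.2% to 55.5%.

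Libraries held 17901605 to 24057343 estimated counts, and the sum of the 13 mRNAs took 2.54% to 3.43% of them, or 3.95% to 5.25% with copies added. By group, the mRNA share with copies was 4.13% ± 0.16 in Mock, 4.41% ± 0.19 in AOA, 5.09% ± 0.16 in AOA+Asp, 4.25% ± 0.30 in HT-DNA, 4.65% ± 0.07 in HT-DNA+AOA and 4.77% ± 0.03 in HT-DNA+AOA+Asp (SD, n = 3 in each). The rRNAs took 0.132% ± 0.022 in Mock, 0.0841% ± 0.018 in AOA and 0.139% ± 0.005 in AOA+Asp (SD, n = 3), and 0.133% to 0.153% on average in the groups with HT-DNA. AOA cells thus had the lowest mean rRNA share. Whether RNA was selected by its poly(A) tail is not given in the sources used here, so the low rRNA share says nothing of rRNA abundance in the cell. Levels are given as CPM, the read count relative to the scaled library total. Of 12 fibroblast markers 9 had a mean over 1 CPM and their sum was 5116 to 7219 CPM. Of 5 leukocyte markers 3 were at 0 in every library and the sum was 110 to 155 CPM, while epithelial and endothelial markers each summed to under 1 CPM. Fewer mitochondria per cell and less RNA per mitochondrion cannot be told apart in these bulk samples.

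**Figure D2:**
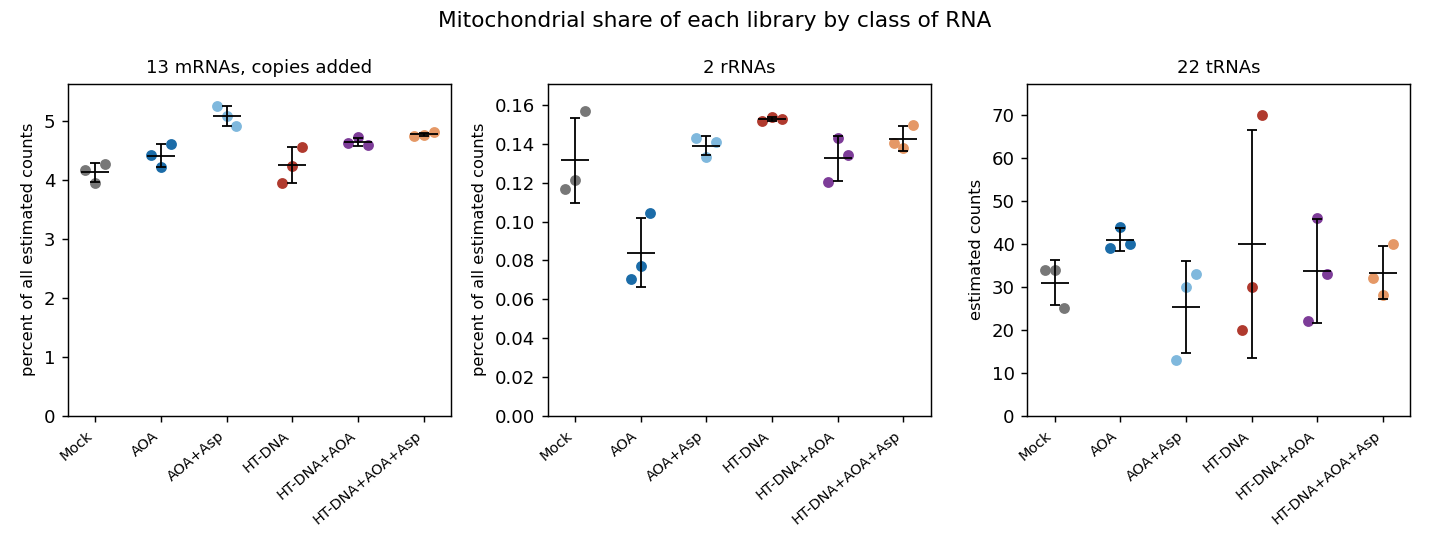
Mitochondrial share of each library by class: the 13 mRNAs with nuclear copies added and the 2 rRNAs, each in percent of all estimated counts, and the 22 tRNAs in estimated counts. Points are libraries, the dash is the group mean and bars are the SD of 3 libraries. The mRNA share ranges from 3.95% to 5.25% and the tRNA total from 13 to 70 counts.

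Per kilobase of transcript and with copies summed, the complex IV subunits stood highest in Mock cells. mt-Co2 had 7732 ± 215 CPM per kilobase, mt-Co3 7196 ± 343 and mt-Co1 6303 ± 249 (SD, n = 3). mt-Nd1, a membrane subunit of complex I, followed at 4428 ± 90.5, and mt-Atp6, a subunit of the proton channel of ATP synthase, at 3578 ± 296. mt-Cytb, the cytochrome b of complex III, had 2530 ± 153. Next came the complex I subunits mt-Nd3 (1774 ± 211), mt-Nd5 (1721 ± 30.1), mt-Nd4 (1685 ± 90.7) and mt-Nd2 (1531 ± 84.0), with mt-Atp8 of ATP synthase at 1505 ± 285. Among themselves mt-Nd3, mt-Nd5 and mt-Nd4 differed by less than the SD of mt-Nd3. mt-Nd2 and mt-Atp8 differed from each other by less than the SD of either. mt-Nd6 was at 1135 ± 64.3 and mt-Nd4l at 850 ± 125, and mt-Rnr1, at 844 ± 92.7, was not apart from mt-Nd4l, while mt-Rnr2 stood lowest at 277 ± 81.1. In AOA cells the first 3 places were again held by mt-Co2, mt-Co3 and mt-Co1, whereas mt-Nd1 stood sixth, behind mt-Atp6 and mt-Cytb.

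Under AOA the mitochondrial transcripts that were called moved in both directions, as did the called genes over all tested genes. Of the mRNAs 7 were not called, nor was mt-Rnr2. The transcripts mt-Nd1, mt-Nd2 and mt-Rnr1 fell by 34.3% to 40.4%, and mt-Co1, mt-Cytb, mt-Nd5 and mt-Nd6 rose by 20.7% to 34.2%. Of the 13 mRNAs, 4 were higher and 2 lower (quasi-likelihood test of edgeR, adjusted p under 0.05 after Benjamini-Hochberg), where 22.4% of all tested genes were higher and 23.3% lower. The median log2 fold change of the 13 mRNAs was 0.27, and 0.02 with copies summed, against 0.02 over all genes.

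mt-Nd1 stood at 4303, 4140 and 4268 CPM in Mock and at 2749, 2305 and 2528 CPM in AOA. The groups did not overlap, and each AOA library lay far below each Mock library. Here and in the other comparisons, how often groups do not overlap was not counted over all tested genes. The log2 fold change was -0.75 ± 0.07 (SE, n = 3 per group, adjusted p = 1.1e-07). mt-Nd2, another membrane subunit of complex I, had 1553, 1525 and 1688 CPM in Mock and 1038, 980 and 1115 CPM in AOA, again without overlap. Its log2 fold change was -0.61 ± 0.07 (adjusted p = 5.7e-07). mt-Rnr1, the RNA of the small ribosomal subunit, had 765, 746 and 908 CPM in Mock and 438, 470 and 574 CPM in AOA. It fell by 0.71 ± 0.09 on the log2 scale (adjusted p = 6.9e-06), and all 3 AOA libraries were below all 3 Mock libraries. mt-Rnr2, the RNA of the large subunit, varied more, with 332, 401 and 581 CPM in Mock and 290, 329 and 512 CPM in AOA. Its groups overlapped, and its log2 fold change of -0.22 ± 0.19 did not pass the test (adjusted p = 0.36).

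mt-Co1, the catalytic subunit of complex IV, had 9970, 9269 and 9784 CPM in Mock and 13112, 12244 and 12825 CPM in AOA. Every AOA library was higher, with a log2 fold change of 0.40 ± 0.07 (adjusted p = 0.00011), or 0.41 with copies summed. mt-Cytb had 2854, 2743 and 3086 CPM in Mock and 3883, 3666 and 4101 CPM in AOA, a log2 fold change of 0.42 ± 0.07 (adjusted p = 5.4e-05). mt-Nd5, a complex I subunit, rose from 3151, 3079 and 3186 CPM to 3762, 3768 and 4025 CPM. Neither mt-Cytb nor mt-Nd5 overlapped between the groups. The log2 fold changes were 0.30 ± 0.08 for mt-Nd5 (adjusted p = 0.0064) and 0.27 ± 0.08 for mt-Nd6 (adjusted p = 0.011). With library totals in place of TMM scaling, which moved the median log2 fold change of all genes by -0.13, these were 0.16 (adjusted p = 0.099) and 0.14 (adjusted p = 0.15) and not called, while mt-Nd4 was called lower (-0.31, adjusted p = 0.0063). The split of mRNA calls became 2 higher and 3 lower, and that of all tested genes 14.9% higher and 31.6% lower. The call of mt-Nd6 was also lost without Mock replicate 2 (adjusted p = 0.051).

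With copies summed, 6 mRNAs were higher and 2 lower under AOA, against 22.4% and 23.3% of all genes. mt-Co2, which carries the site where complex IV takes electrons from cytochrome c, then had 5298, 5137 and 5431 CPM in Mock and 8557, 7304 and 8032 CPM in AOA. This was the largest rise among the called members once copies were summed, with a log2 fold change of 0.59 ± 0.06 (adjusted p = 6.1e-07), while the mt-Co2 row alone gave 0.46 ± 0.23 (adjusted p = 0.12). mt-Co3 with copies rose by 0.35 on the log2 scale (adjusted p = 0.005). mt-Atp6 had a log2 fold change of 0.51 ± 0.26 on its own row and of -0.04 with copies, neither called. mt-Nd4 (-0.17 ± 0.09, adjusted p = 0.12), mt-Nd3, mt-Nd4l and mt-Atp8 did not pass the test in either form.

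**Figure D3:**
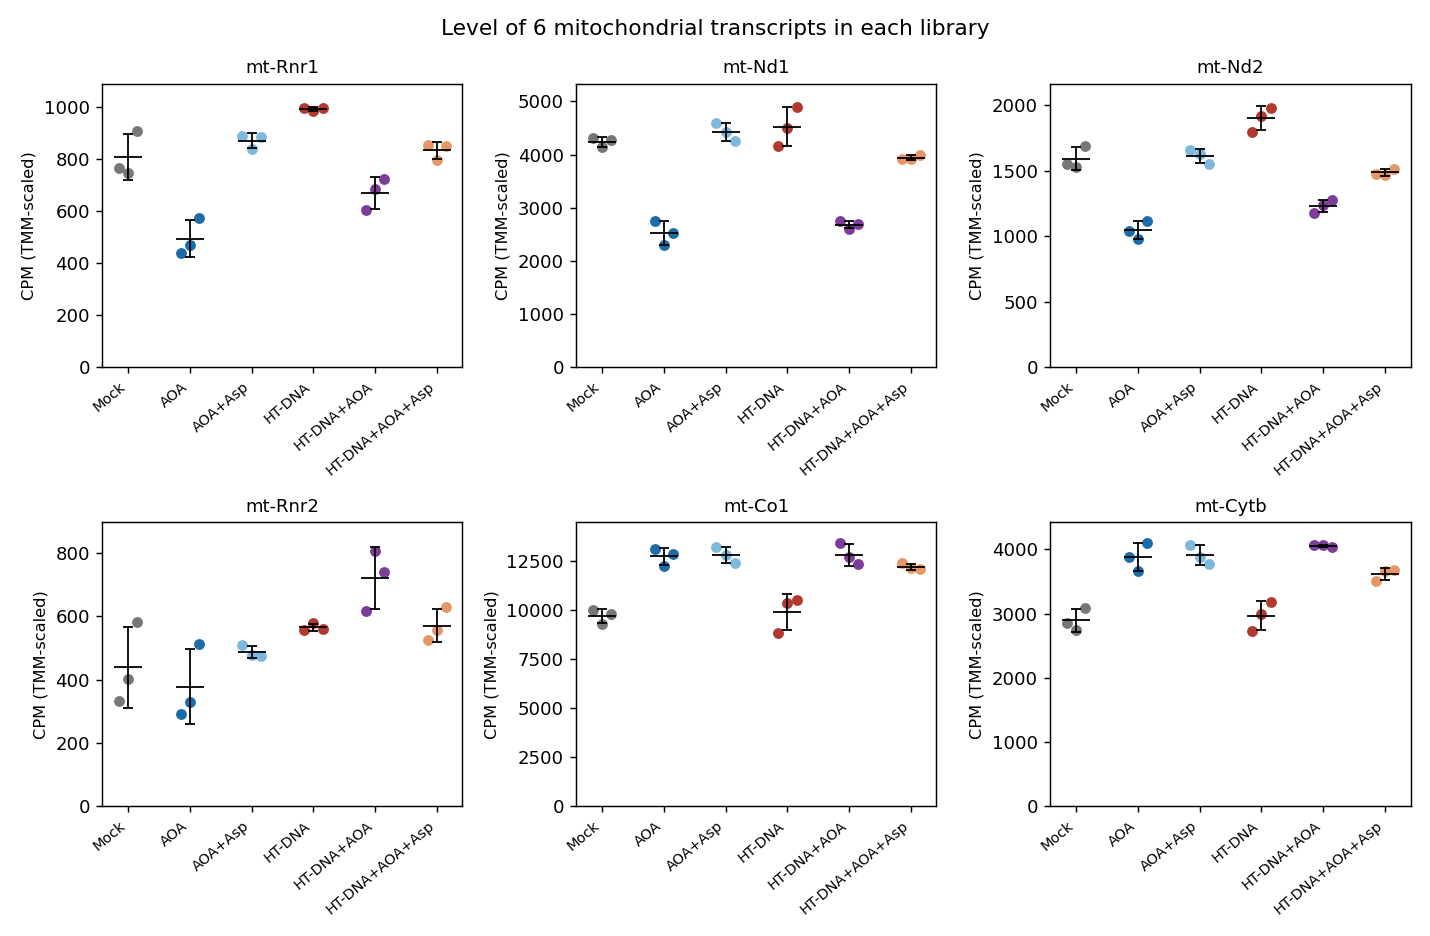
Level of 6 mitochondrial transcripts in CPM scaled by TMM (y axes, from 0) in the 6 groups (x axes). Points are libraries, dashes are group means and bars are the SD of 3 libraries. mt-Rnr1, mt-Nd1 and mt-Nd2 are lower in the AOA group than in the Mock group without overlap, and mt-Co1 and mt-Cytb are higher without overlap.

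With aspartate added to AOA, the 3 transcripts that had fallen under AOA were higher, and no change was detected in the 4 that had risen. This comparison shares its AOA libraries with the previous one. Against AOA, AOA+Asp cells had 3 of 13 mRNAs higher and 1 lower, where 23.5% of all tested genes were higher and 22.8% lower. mt-Nd1 stood at 4597, 4416 and 4258 CPM and mt-Nd2 at 1658, 1627 and 1551 CPM, all above the AOA libraries. The log2 fold changes against AOA were 0.81 ± 0.07 for mt-Nd1 (adjusted p = 5.8e-08), 0.63 ± 0.07 for mt-Nd2 (adjusted p = 4.6e-07) and 0.82 ± 0.09 for mt-Rnr1 (adjusted p = 1.5e-06). mt-Nd4, a complex I subunit, was also higher (0.39 ± 0.09, adjusted p = 0.0015). By contrast mt-Co1, mt-Cytb, mt-Nd5 and mt-Nd6 each had a log2 fold change of 0.01, with SE from 0.07 to 0.08, and the 95% interval was -0.13 to 0.14 for mt-Co1 and -0.12 to 0.14 for mt-Cytb. The 1 lower mRNA was mt-Co2 (-0.65 ± 0.23, adjusted p = 0.032). With copies summed its log2 fold change was -0.01 (adjusted p = 0.89) and mt-Atp6 was higher instead (0.36, adjusted p = 0.0017), so that 4 mRNAs were higher and none lower, against 23.5% and 22.8% of all genes. The mt-Co2 call was also lost without AOA replicate 2 (adjusted p = 0.10), without AOA+Asp replicate 1 (adjusted p = 0.090) and without AOA+Asp replicate 2 (adjusted p = 0.12).

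Set directly against Mock, AOA+Asp cells had mRNAs of complexes III and IV above Mock, and no mRNA called below. Of complex I, mt-Nd5 and mt-Nd6 were called, but both calls were lost in several alternatives, while mt-Nd1 and mt-Nd2 were not called. Of 13 mRNAs 4 were higher and none lower, where 2.52% of all tested genes were higher and 3.95% lower. The 4 were mt-Cytb (log2 fold change 0.43 ± 0.07, adjusted p = 0.00055), mt-Co1 (0.40 ± 0.07, adjusted p = 0.0012), mt-Nd5 (0.30 ± 0.08, adjusted p = 0.032) and mt-Nd6 (0.28 ± 0.08, adjusted p = 0.046). mt-Co1 had 13195, 12780 and 12371 CPM, and mt-Cytb had 4075, 3883 and 3764 CPM, all above every Mock library. mt-Nd1, mt-Nd2 and mt-Rnr1 differed from Mock by 0.06, 0.02 and 0.11 on the log2 scale, with 95% intervals of -0.07 to 0.20, -0.11 to 0.15 and -0.07 to 0.29. With copies summed 7 mRNAs were higher and none lower, against 2.53% and 3.94% of all genes, the additional ones being mt-Co2 (0.58, adjusted p = 1.2e-05), mt-Co3 (0.37, adjusted p = 0.022) and mt-Atp6 (0.32, adjusted p = 0.026). The calls of mt-Nd5 and mt-Nd6 were lost with library totals (adjusted p = 0.056 and 0.074), and without any single Mock library or AOA+Asp replicate 1 or 2, with adjusted p from 0.054 to 0.18, which left 2 mRNAs called.

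**Figure D4:**
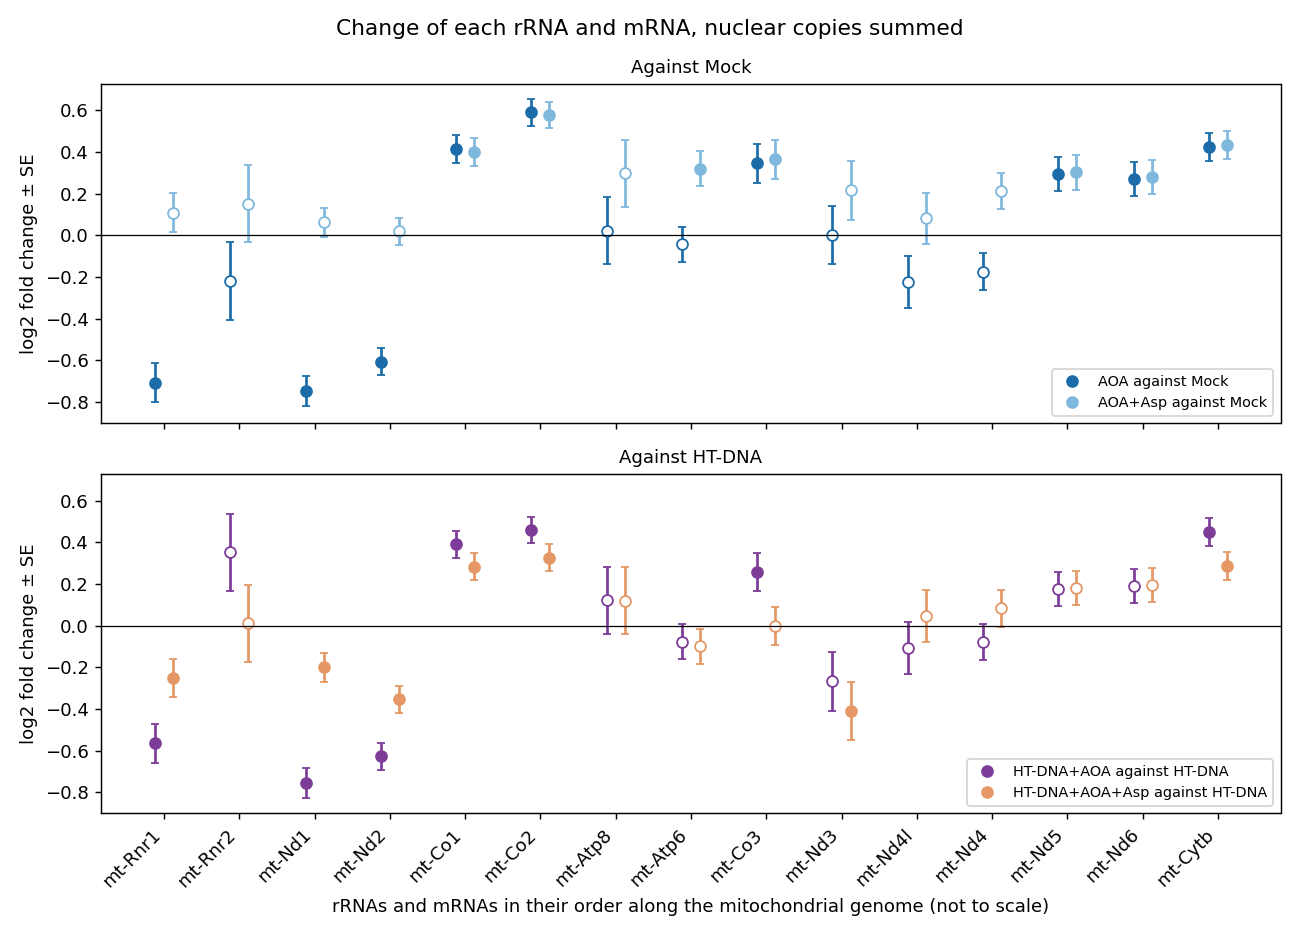
Log2 fold change with its SE (y axis), nuclear copies summed, for the 2 rRNAs and 13 mRNAs in their order along the mitochondrial genome (x axis). The upper panel sets AOA and AOA+Asp against Mock, the lower panel HT-DNA+AOA and HT-DNA+AOA+Asp against HT-DNA. Filled points passed the test. In the upper panel mt-Nd1 lies at -0.75 in AOA and at 0.06 in AOA+Asp, while mt-Cytb lies at 0.42 and 0.43.

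The 3 transcripts that fell under AOA belong to the first 4 rRNAs and mRNAs along the genome, with mt-Rnr2, which was not called, as the remaining one. Over the 14 rRNAs and mRNAs of the strand with most genes, which share libraries and in part reads, the AOA log2 fold change (copies summed) had a Pearson correlation of 0.65 and a Spearman correlation of 0.48 with gene order. With transcript length these were 0.09 and 0.05, with the share of T in the sequence 0.29 and 0.27, and with GC content 0.30 and 0.31. For HT-DNA+AOA against HT-DNA the correlations with gene order were lower, 0.47 and 0.27, and those with GC content were 0.28 and 0.33. Correlations with gene order also occurred where AOA was not the difference. They were -0.33 and -0.49 for HT-DNA against Mock, and -0.57 and -0.46 for HT-DNA+AOA against AOA. In AOA against Mock the relation with gene order was not even. There mt-Nd4 and mt-Nd4l in the later part had log2 fold changes of -0.17 and -0.23, while mt-Co3 before and mt-Nd5 after them had 0.35 and 0.30.

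Ratios of counts within a library need no scaling between libraries. Because mt-Nd1 and mt-Cytb had changed in opposite directions in these same libraries, their ratio gives no independent support for those changes. The ratio of mt-Nd1 to mt-Cytb was 1.51, 1.51 and 1.38 in Mock and 0.708, 0.629 and 0.616 in AOA. In AOA+Asp it was 1.13, 1.14 and 1.13, between both groups and overlapping neither. HT-DNA cells had a mean of 1.53 ± 0.02, HT-DNA+AOA cells 0.661 ± 0.018 and HT-DNA+AOA+Asp cells 1.09 ± 0.02 (SD, n = 3). The ratio of mt-Rnr1 to mt-Rnr2 was 1.91 ± 0.37 in Mock, 1.35 ± 0.21 in AOA and 1.79 ± 0.06 in AOA+Asp. With HT-DNA it was 1.75 ± 0.04, falling to 0.934 ± 0.073 with AOA and standing at 1.47 ± 0.14 with AOA and aspartate. In HT-DNA+AOA+Asp libraries it ranged from 1.35 to 1.62, which overlapped AOA (1.12 to 1.51) and Mock (1.56 to 2.30). AOA+Asp libraries, at 1.75 to 1.86, lay within the range of Mock. The ratio of mt-Nd6 to mt-Nd5, neighbours on opposite strands that overlap by 14 bases, ranged only from 0.185 to 0.189 between group means. Whether counting used the strand is not given in the sources used here, so reads from mt-Nd5 and mt-Nd6 transcripts might not be separated.

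**Figure D5:**
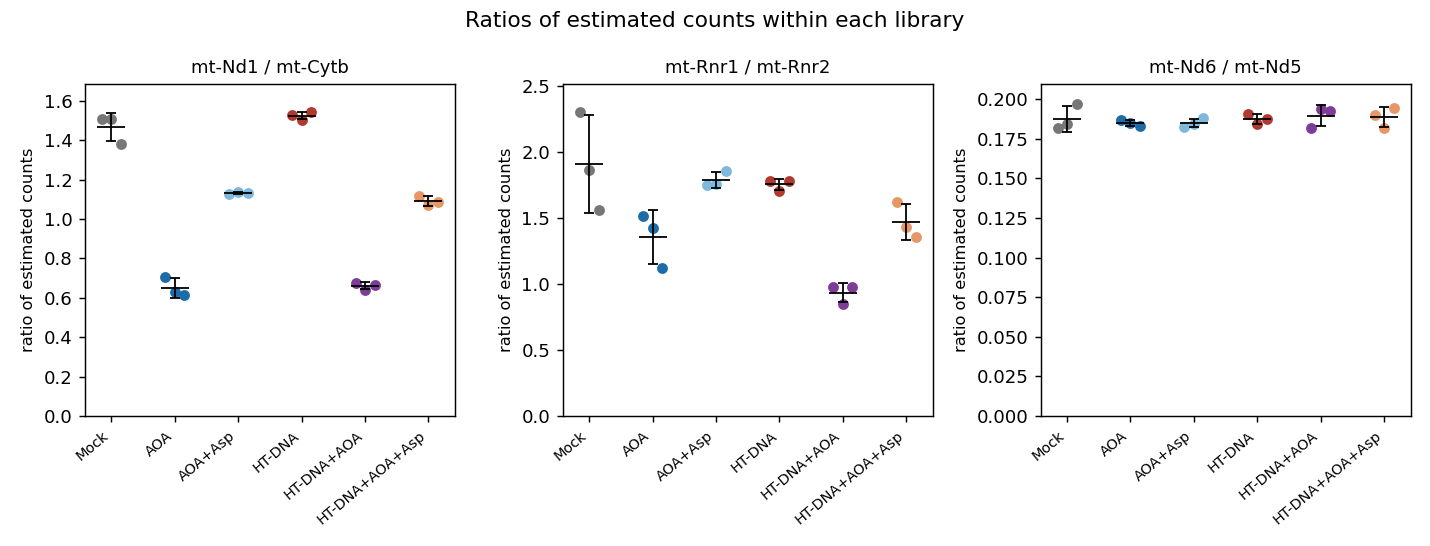
Ratios of estimated counts within each library (y axes, from 0) for mt-Nd1 to mt-Cytb, mt-Rnr1 to mt-Rnr2 and mt-Nd6 to mt-Nd5, by group (x axes). Points are libraries, dashes are group means and bars are the SD of 3 libraries. The mt-Nd1 to mt-Cytb ratio is near 1.47 in Mock, 0.651 in AOA and 1.13 in AOA+Asp, and the mt-Nd6 to mt-Nd5 ratio stays between 0.185 and 0.189 on average.

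HT-DNA alone went with higher levels of several members, among them mt-Nd2, mt-Nd3 and mt-Rnr1. Of 13 mRNAs 4 were higher and none lower against Mock, where 24.2% of all tested genes were higher and 24% lower. mt-Nd2 had 1798, 1916 and 1979 CPM against 1553, 1525 and 1688 CPM in Mock, and the groups did not overlap. Its log2 fold change was 0.26 ± 0.06 (adjusted p = 0.0036). mt-Nd3, a complex I subunit, had 411, 376 and 381 CPM against 213, 230 and 282 CPM, again without overlap. It rose by 0.69 ± 0.18 on its own row (adjusted p = 0.0054) and by 0.57 with copies summed (adjusted p = 0.0028). mt-Rnr1 had 994, 983 and 997 CPM, all above Mock, with a log2 fold change of 0.30 ± 0.09 (adjusted p = 0.014). mt-Atp6 rose by 0.72 ± 0.26 (adjusted p = 0.031), or 0.37 with copies summed (adjusted p = 0.0016). For mt-Co3 the rise was 1.04 ± 0.40 on its own row (adjusted p = 0.048) and 0.32 with copies summed (adjusted p = 0.0081). With copies summed mt-Co2 was higher too (0.19, adjusted p = 0.021). On their own rows the other mRNAs did not pass the test, with log2 fold changes from -0.11 for mt-Co2 to 0.24 for mt-Atp8. The mt-Co3 call on its own row was lost without Mock replicate 2 or 3 or HT-DNA replicate 1 or 2 (adjusted p from 0.059 to 0.12), and that of mt-Atp6 without any single Mock library or HT-DNA replicate 1 or 3 (adjusted p from 0.053 to 0.091), so that 2 mRNAs remained called without Mock replicate 2 or 3. That of mt-Rnr1 was lost without Mock replicate 1 or 2 (adjusted p = 0.063 and 0.073) and with library totals (adjusted p = 0.081). Library totals moved the median log2 fold change of all genes from -0.01 to -0.12, with 16.9% of genes higher and 31.1% lower, and that of the 13 mRNAs from 0.06 to -0.05, with 3 mRNAs higher.

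With HT-DNA present, AOA again lowered mt-Nd1, mt-Nd2 and mt-Rnr1 and raised mt-Co1 and mt-Cytb. Of 13 mRNAs 2 were higher and 2 lower in HT-DNA+AOA against HT-DNA, where 22.8% of all tested genes were higher and 22.7% lower, and with copies summed 4 were higher and 2 lower against the same 22.8% and 22.7%. mt-Nd1 had 4166, 4503 and 4902 CPM in HT-DNA and 2743, 2607 and 2690 CPM in HT-DNA+AOA. All libraries with AOA were lower, with a log2 fold change of -0.76 ± 0.07 (adjusted p = 5.9e-08). mt-Nd2 fell by 0.63 ± 0.07 (adjusted p = 2.5e-07), from 1798, 1916 and 1979 CPM to 1177, 1236 and 1273 CPM. mt-Rnr1 stood at 603, 686 and 722 CPM, a log2 fold change of -0.56 ± 0.09 (adjusted p = 6.4e-05). mt-Cytb was higher by 0.45 ± 0.07 (adjusted p = 2.2e-05) and mt-Co1 by 0.37 ± 0.07 (adjusted p = 0.00017). With copies summed mt-Co2 (0.46, adjusted p = 8.7e-06) and mt-Co3 (0.26, adjusted p = 0.028) were higher as well. mt-Nd5 and mt-Nd6 had log2 fold changes of 0.18 and 0.19 (adjusted p = 0.090 and 0.064). mt-Rnr2 had 558, 578 and 561 CPM in HT-DNA and 616, 807 and 742 CPM in HT-DNA+AOA. These groups did not overlap, yet the log2 fold change of 0.35 ± 0.19 did not pass the test (adjusted p = 0.14).

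The AOA effect with HT-DNA was not shown to differ from that without it for any member. No mRNA was called in this difference of effects, with 0 of 13 also at an unadjusted p under 0.05 and 0 by DESeq2, whereas 7.23% of all tested genes were called higher and 8.26% lower. The differences in log2 fold change were -0.01 ± 0.10 for mt-Nd1, -0.02 ± 0.09 for mt-Nd2, -0.02 ± 0.10 for mt-Co1 and 0.03 ± 0.10 for mt-Cytb. mt-Rnr2 had the largest positive difference, 0.57 ± 0.26 (adjusted p = 0.15). The most negative difference of an mRNA on its own row was -0.77, and that of a tested tRNA was -2.27, neither called. Without the filter on low counts 2 mRNAs were called lower and 0 higher. The shares of all genes called in this difference depended on the libraries used. They were 17.55% higher and 19.64% lower without HT-DNA+AOA replicate 3. With the compared groups alone they were 3.15% and 4.15%. Neither fit called an mRNA.

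With aspartate added to HT-DNA and AOA, the transcripts that AOA had lowered were higher. This comparison shares its HT-DNA+AOA libraries with the one in which they had fallen, so these results are not independent. Of 13 mRNAs 2 were higher and none lower in HT-DNA+AOA+Asp against HT-DNA+AOA, where 23.7% of all tested genes were higher and 23.9% lower. mt-Nd1 stood at 3912, 3914 and 3999 CPM, a log2 fold change of 0.56 ± 0.07 (adjusted p = 3.8e-06). mt-Nd2 had 1476, 1469 and 1514 CPM (0.27 ± 0.06, adjusted p = 0.002) and mt-Rnr1 had 853, 796 and 850 CPM (0.31 ± 0.09, adjusted p = 0.0099). In all 3 genes every library lay above the HT-DNA+AOA libraries, a separation that was not counted over all tested genes. mt-Cytb had a log2 fold change of -0.17 ± 0.07 (adjusted p = 0.051) and mt-Co1 of -0.07 ± 0.07. With copies summed mt-Co3 was lower (-0.26, adjusted p = 0.027). Without HT-DNA+AOA replicate 1 the number of mRNAs called was 4. With RLE, a minimum of 10 counts in each library, the replicate block or DESeq2, 1 mRNA was called lower. In these fits 20.83% to 27.56% of all genes were lower. Without the filter 3 mRNAs were called lower, where 10.96% of all genes were. With library totals, TMM from nuclear rows or the compared groups alone, none was called lower.

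Against HT-DNA alone, HT-DNA+AOA+Asp cells had 2 of 13 mRNAs higher and 3 lower, where 23.2% of all tested genes were higher and 23.5% lower. mt-Co1 (0.30 ± 0.07, adjusted p = 0.0017) and mt-Cytb (0.29 ± 0.07, adjusted p = 0.0026) were higher, and with copies summed mt-Co2 as well (0.33, adjusted p = 0.00063). mt-Nd2 (-0.35 ± 0.06, adjusted p = 0.00041), mt-Nd1 (-0.20 ± 0.07, adjusted p = 0.026), mt-Nd3 (-0.50 ± 0.18, adjusted p = 0.034) and mt-Rnr1 (-0.25 ± 0.09, adjusted p = 0.034) were lower. The call of mt-Nd2 held in all 15 alternatives run, 6 of which left out 1 library. That of mt-Rnr1 was lost without any single library of the 2 groups (adjusted p from 0.059 to 0.12), that of mt-Nd3 without any HT-DNA library or HT-DNA+AOA+Asp replicate 1 or 2 (0.055 to 0.11), and that of mt-Nd1 without HT-DNA replicate 3 or any HT-DNA+AOA+Asp library (0.054 to 0.16). Without HT-DNA+AOA+Asp replicate 1 or 2, 3 mRNAs remained called in place of 5.

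The aspartate effect was next compared with and without HT-DNA. No mRNA was called (2 of 13 at an unadjusted p under 0.05, 1 by DESeq2), where 0.266% of all tested genes were higher and 0.785% lower. mt-Rnr1 (-0.50 ± 0.13) and mt-Nd2 (-0.35 ± 0.09) came nearest, both with an adjusted p of 0.081. For mt-Nd1 the difference was -0.25 ± 0.10 (adjusted p = 0.33). Without AOA replicate 3, HT-DNA+AOA replicate 1 or HT-DNA+AOA replicate 3, 1 mRNA was called.

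HT-DNA was also set against its absence in cells with AOA. In HT-DNA+AOA against AOA both rRNAs were higher, mt-Rnr2 by 0.94 ± 0.19 (adjusted p = 0.0028) and mt-Rnr1 by 0.44 ± 0.09 (adjusted p = 0.0036), with no overlap between the groups in either. With the compared groups fitted alone the mt-Rnr1 call was lost (log2 fold change 0.45, adjusted p = 0.13). Of 13 mRNAs 1 was higher, mt-Nd2 (0.23 ± 0.06, adjusted p = 0.021), and none lower, where 6.46% of all tested genes were higher and 6.98% lower. This mt-Nd2 call was lost without AOA replicate 1 or 2 or HT-DNA+AOA replicate 2 (adjusted p from 0.071 to 0.12), which left no mRNA called, while 2 were called without AOA replicate 3 and 3 without HT-DNA+AOA replicate 1. The shares of all genes moved too, to 12.76% higher and 15.8% lower without HT-DNA+AOA replicate 1. With the compared groups alone they were 2.12% and 0.842%. With copies summed mt-Atp6 was higher as well (0.34, adjusted p = 0.011). When aspartate was present too, in HT-DNA+AOA+Asp against AOA+Asp, no mRNA was called (1 of 13 at an unadjusted p under 0.05, 0 by DESeq2), where 1.93% of all tested genes were higher and 1.52% lower. Log2 fold changes there were -0.17 ± 0.07 for mt-Nd1, -0.12 ± 0.06 for mt-Nd2, -0.06 ± 0.09 for mt-Rnr1 and 0.23 ± 0.19 for mt-Rnr2.

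The tRNAs were close to undetected, with 13 to 70 counts per library for all 22 together, and 9 of them were at 0 in every library. A value of 0 in a single library leaves room for an expected count of up to 3. The tighter limit set by 0 in every library was not computed. Of their 613 counts 577, or 94.1%, lay on the 8 tRNAs of the strand that carries fewer genes, all 8 of which had counts. On the other strand 5 of 14 had counts, 36 in all. The 3 tRNAs with most counts were mt-Ts1 with 221, mt-Tq with 126 and mt-Tn with 117, and their sequences are shown with the anticodon in capitals.
mt-Ts1: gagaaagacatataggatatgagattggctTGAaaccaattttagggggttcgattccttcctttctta
mt-Tq: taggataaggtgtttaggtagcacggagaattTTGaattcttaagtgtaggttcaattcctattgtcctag
mt-Tn: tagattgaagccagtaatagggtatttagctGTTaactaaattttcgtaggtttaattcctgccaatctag
The anticodons are those of a serine, the glutamine and the asparagine tRNA. mt-Ts1 and mt-Tq passed the filter on low counts, and neither was called in any comparison. mt-Ts1 had 12, 9 and 11 counts in Mock and 11, 23 and 19 in AOA, with overlapping values and a log2 fold change of 0.88 ± 0.44 (adjusted p = 0.11). mt-Tq had 2, 4 and 29 counts in the HT-DNA libraries, so that 1 library held most of the group's counts. Changes of single tRNAs were not detectable at this depth, and whether reads on these tRNAs come from the transcript of the opposite strand was not tested.

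Nuclear genes that act on mitochondrial RNA were read from 6 lists with 52 genes, of which 51 passed the filter. They cover transcription, processing of the long RNAs, stability and turnover, methylation of rRNA, modification of tRNA and supply of nucleotides. Under AOA 24 of the 51 were higher and 5 lower, where 22.4% of all tested genes were higher and 23.3% lower. The 3 largest rises were Trit1, which modifies a base beside the anticodon of tRNAs (log2 fold change 1.13 ± 0.11, adjusted p = 1.3e-07), Slc25a33, a carrier of pyrimidine nucleotides in the mitochondrial inner membrane (1.13 ± 0.09, adjusted p = 2.4e-08), and Alkbh1, which acts on tRNA (0.95 ± 0.13, adjusted p = 7.9e-06). The 3 largest falls were Ptcd1, a pentatricopeptide repeat protein that binds mitochondrial RNA (-0.67 ± 0.07, adjusted p = 8.0e-07), Fastkd5, which takes part in processing of mitochondrial mRNAs (-0.46 ± 0.09, adjusted p = 0.00048), and Mterf3, of the family of mitochondrial transcription termination factors (-0.42 ± 0.07, adjusted p = 9.4e-05). Of the 8 transcription genes 3 were higher and 3 lower, of the 6 processing genes 1 and 1, and of the 14 stability genes 5 and 1. For rRNA methylation 4 of 6 were higher, for tRNA modification 7 of 10 and for nucleotide supply 4 of 7, with none lower in these lists. Nothing particular to a list is read from counts this small.

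With aspartate added to AOA the counts were 9 higher and 24 lower of 51, where 23.5% of all tested genes were higher and 22.8% lower. Against Mock 2 were higher, where the share of all genes was 2.52%, Trit1 (0.50 ± 0.11, adjusted p = 0.0081) and Trmt10c, a subunit of mitochondrial RNase P (0.34 ± 0.09, adjusted p = 0.021). Slc25a33 had a mean of 36.8 ± 2.5 CPM in Mock, 80.3 ± 4.7 in AOA and 38.2 ± 3.3 in AOA+Asp (SD, n = 3). Ptcd1 had 45.4 ± 0.9, 28.6 ± 0.9 and 41.1 ± 2.3 CPM in the same groups. HT-DNA gave 23 higher and 6 lower of 51, where 24.2% of all genes were higher and 24% lower, with the largest rises in Mrpl12 (0.80 ± 0.14, adjusted p = 0.00019), Mrm3 (0.72 ± 0.10, adjusted p = 2.0e-05) and Trmt10c (0.66 ± 0.09, adjusted p = 1.5e-05), which encode a ribosomal protein that also binds the mitochondrial RNA polymerase, an rRNA methyltransferase and the RNase P subunit. In HT-DNA+AOA against HT-DNA 16 were higher and 8 lower, against 22.8% and 22.7% of all genes, with Ptcd1 again the deepest fall (-0.99 ± 0.07, adjusted p = 4.0e-09) and Rrm2b, a ribonucleotide reductase subunit, the largest rise (1.49 ± 0.17, adjusted p = 8.2e-07). The lists were chosen with earlier results of these data known.

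The nuclear genes for subunits of the same respiratory complexes, 78 of 85 passing the filter, were counted beside the mitochondrial mRNAs. Under AOA 26 of 78 were higher and 2 lower, with a median log2 fold change of 0.26, against 22.4% and 23.3% of all tested genes, where the mitochondrial mRNAs gave 4 higher and 2 lower of 13. In AOA+Asp against AOA 1 of 78 was higher and 30 lower, with a median of -0.28, against 23.5% and 22.8% of all genes, where the mitochondrial mRNAs gave 3 higher and 1 lower. HT-DNA against Mock gave 61 higher and 1 lower of 78, where 24.2% of all genes were higher and 24% lower. Their median log2 fold change was 0.42, against a median of 0.06 for the 13 mitochondrial mRNAs. The difference between the nuclear and the mitochondrial subunits was not tested.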

How the data were processed

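L929 RNA was extracted with TRIzol and sequenced in 18 libraries of 6 groups. Values are estimated counts that the authors made from reads for each gene and did not normalize. Fractions of a read occurred in 11.6% of the values. The aligner, counting program, genome build, poly(A) selection and strand setting are not given in the sources used here, so no coordinates are given. The deposited columns of group means equalled the means of the libraries to within 3.3e-05 and were not used. Samples were grouped by their labels. Because the planned design assumed whole counts, values were rounded. The model was run by edgeR 4.0.16 under R 4.3.3. Its filterByExpr (minimum count 10, minimum total 15) left 14263 genes, including 13 mRNAs, 2 rRNAs and 2 tRNAs of the set, and 1 robust quasi-likelihood model with TMM scaling was fitted to all libraries. Calls are Benjamini-Hochberg adjusted p under 0.05 over all genes tested. CPM are TMM-scaled. Replicate libraries differed by more than counting error (chi-square per degree of freedom 2.78 to 67.0). The study calls the replicates biological, and p-values measure the spread between these samples.

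Nuclear copies were genes sharing at least 25 words of 31 bases with a mitochondrial gene in GENCODE vM21, which held 51884 of the 57180 identifiers, and printed sequences come from that release. The release the authors used may differ. Named genes were all mt- rows, their nuclear copies and, of 6 lists, the up to 3 called genes of largest change in each direction per comparison, with the levels of Slc25a33 and Ptcd1 given after their values were seen. Members and lists were chosen with earlier results of these data known. Alternatives were RLE, library totals, TMM from nuclear rows, a minimum of 10 counts in each library, omission of the filter, DESeq2 1.42.0, the compared groups alone, a replicate block, each library left out, shares over nuclear counts and, after the data were seen, copies summed. Of these steps only the edgeR fit was tested on simulated data.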

Additional observations from a re-analysis of the deposited data

How the results depend on the processing

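Of 38 calls of a single rRNA or mRNA in a comparison, 25 held under all their 15 alternatives. Over all 570 values 60 lost the call and 0 changed sign, so directions of these calls held. Lost calls were of mt-Nd1, mt-Nd2, mt-Nd3, mt-Nd5, mt-Nd6, mt-Co2, mt-Co3, mt-Atp6 and mt-Rnr1. For mt-Nd1 and mt-Nd3 they lay in HT-DNA+AOA+Asp against HT-DNA, for mt-Nd2 in HT-DNA+AOA against AOA and for mt-Rnr1 in both and in HT-DNA against Mock. With library totals calls were gained beyond that of mt-Nd4 under AOA. In AOA+Asp against AOA mt-Rnr2 was higher (log2 fold change 0.46, adjusted p = 0.0455). In HT-DNA+AOA+Asp against HT-DNA+AOA mt-Nd4 was higher (0.25, adjusted p = 0.0198). In HT-DNA+AOA+Asp against HT-DNA, mt-Nd5 and mt-Nd6 were higher (adjusted p = 0.0218 and 0.0159). The split there became 4 mRNAs higher and 2 lower, where 25.6% of all tested genes were higher and 20.25% lower. Counts of mRNAs called of 13 moved by more than 1.5 times as follows. With library totals AOA+Asp against Mock had 2 in place of 4. Without a filter HT-DNA+AOA+Asp against HT-DNA+AOA had 5 in place of 2, HT-DNA+AOA against AOA 4 in place of 1, HT-DNA+AOA+Asp against AOA+Asp 1 in place of 0, the difference of AOA effects 2 and the difference of aspartate effects 1 in place of 0. DESeq2 gave 1 in the difference of aspartate effects. With the compared groups alone HT-DNA+AOA against AOA had 0 and HT-DNA+AOA+Asp against AOA+Asp 1. With copies summed AOA+Asp against Mock had 7 and HT-DNA+AOA against AOA 2. The cause was not tested.

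Leaving out 1 library at a time gave 5 to 6 mRNAs for AOA against Mock, 3 to 4 for AOA+Asp against AOA, 2 to 4 for AOA+Asp against Mock, 2 to 3 for HT-DNA against Mock, 4 to 6 for HT-DNA+AOA against HT-DNA, 2 to 4 for HT-DNA+AOA+Asp against HT-DNA+AOA, 3 to 5 for HT-DNA+AOA+Asp against HT-DNA, 0 to 3 for HT-DNA+AOA against AOA, 0 for HT-DNA+AOA+Asp against AOA+Asp, 0 for the difference of AOA effects and 0 to 1 for that of aspartate effects.

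Same-numbered libraries of different groups had a median correlation of deviations of -0.004 over 45 pairs, and 14 of these pairs, not all, were over 0.1. The labels name no shared batch, so the numbers were not taken to pair the samples, although 10 of 18 libraries correlated best with their own number, a hint from the data alone. With the replicate block HT-DNA+AOA against AOA had 2 mRNAs called in place of 1, and the mt-Co3 call in HT-DNA against Mock was lost (adjusted p = 0.079). With library totals the all-gene split in AOA+Asp against AOA was 28.7% higher and 17.4% lower, and in HT-DNA+AOA+Asp against HT-DNA+AOA 29.4% and 17.86%, in AOA+Asp against Mock 1.62% and 6.12%, and in the difference of AOA effects 9.73% and 5.35%. Shares over nuclear counts ranged from 2.61 to 3.55 mRNA counts per 100. Depth limited the tRNAs, at 13 to 70 counts per library.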
